A study of Mus musculus with 49 samples.

Results

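Immature bone marrow B cells that had been cultured with type I interferon (IFN) were compared with immature B cells that had been cultured in medium alone. All 4 Ctrl-Mhi arrays and all 3 GFPneg arrays of the Affymetrix U74Av2 table were taken by their titles, which makes 7 of the 49 samples of the series and 7 of the 37 arrays of that table. The series follows what immature B cells express when the surface B cell receptor (BCR) is deleted or its signalling is blocked, and both groups served there as receptor-bearing controls. Bone marrow cells of both groups were expanded for 5 d with interleukin-7 (IL-7), a growth factor of B cell progenitors, and then recultured without it. Ctrl-Mhi cells came from B1-8h/3-83(kappa) mice, which carry knock-in alleles of a rearranged heavy and a rearranged kappa light chain and no Cre transgene, were recultured for 2 d in 1000 units/ml IFN-alpha/beta and were sorted for high surface IgM. GFPneg cells came from mice with 2 transgenes, an anti-HEL immunoglobulin (HEL is hen egg lysozyme) and a Rag-2-GFP reporter, were recultured for 1 d in medium without IFN and were sorted as IgM+ cells without GFP. IFN, genotype, hours of reculture and sort gate therefore differed together, and for any gene described here they cannot be told apart within this comparison. The labels number the arrays and the methods give independent sorts for Ctrl-Mhi, but the number of animals and the strain background of either group are not given in the sources used here, so p-values measure the spread between these sorted samples.

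Type I IFN acts through a receptor of 2 chains, Ifnar1 and Ifnar2, whose kinases Jak1 and Tyk2 pass the signal on to transcription factors. Irf9 is among those that bind the interferon-stimulated response element (ISRE) in the promoters of interferon-stimulated genes. Their products degrade or trap viral RNA, attach the ubiquitin-like protein Isg15 to other proteins, load MHC class I molecules with peptide, and limit the signal itself through Usp18 and Socs1.

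Values are hybridization signals of probe sets, groups of oligonucleotides that together measure 1 transcript, on a linear scale that the authors had set to a target of 1500 units per array. Median signals of the 7 arrays spanned 471 to 529 units. Signals of 20 or less, 2.7% to 6.13% of an array, were raised to 20 before log2. Differences are those of the mean log2 signals, and a gene was called at an adjusted p under 0.05 in limma over all 9977 probe sets. Arrays of one group correlated at r = 0.937 to 0.957 and arrays of different groups at 0.916 to 0.935 across probe sets. Lower cell numbers and less RNA per cell cannot be told apart in such bulk samples. Of 11 measured genes of B lineage identity 0 were called, and Ighm, the heavy chain constant region of IgM, was at 136400 ± 10159 units in Ctrl-Mhi (SD, n = 4) and 130379 ± 14800 in GFPneg (SD, n = 3). At a floor of 100, 2 of the B lineage genes were called higher. Both groups had been sorted for surface IgM. Dimmer probe sets annotated to Ighm differed by -1.26 (not called) to 3.50 (called).

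Of 143 named genes called higher in Ctrl-Mhi 33, or 23.1%, were on the lists of interferon genes. Of 9977 probe sets, 219 were called higher and 133 lower in Ctrl-Mhi, or 3.53% in either direction (2.2% higher, 1.33% lower). The count was 248 without Ctrl-Mhi replicate 1, 371 without replicate 2, 182 without replicate 3 and 164 without replicate 4, and 171, 148 and 182 without GFPneg replicates 1, 2 and 3. Of 89 measured genes on the interferon lists, 33 rose and 2 fell, against a background of 1.93% called higher and 1.54% called lower among all 7417 named genes, each taken by 1 probe set. The median log2 difference of the 89 genes was 0.89, and that of all named genes was 0.03. The 33 rises spanned log2 differences of 0.95 to 6.94 with a median of 2.21, and 11 of them were at least 8-fold. Leaving out any one array left 21 to 31 of these genes called higher, with the lowest count when GFPneg replicate 2 was left out. The core of the ISRE, GAAA, any 2 bases and GAAA again, was then sought on both strands of the 250 bases before the start of transcription in RefSeq (GRCm38.p6). A promoter was listed for 28 of the 33 genes, and 8 of these 28, or 28.6%, held the motif at a listed start, as did 2.98% of all 32851 listed promoters. A second motif, the GAS element of cytokine-responsive promoters (TTC, any 3 bases and GAA), was held by 5 of the 28 genes and by 7.02% of all promoters. A match describes the letters only and is neither a binding site nor a cause. The genes came from lists of known interferon genes, and list members that did not rise were not counted. The shares therefore cannot tie the motif to the rise. They also count genes on the one side and single promoters on the other. Promoters of 6 of the 8 genes are shown because they span the roles described in the next paragraphs, with each ISRE match in capitals, read 5′ to 3′ on the gene's strand (TTTC at either end marks a match on the other strand).
Ifit1, chr19:34640639-34640888, plus strand: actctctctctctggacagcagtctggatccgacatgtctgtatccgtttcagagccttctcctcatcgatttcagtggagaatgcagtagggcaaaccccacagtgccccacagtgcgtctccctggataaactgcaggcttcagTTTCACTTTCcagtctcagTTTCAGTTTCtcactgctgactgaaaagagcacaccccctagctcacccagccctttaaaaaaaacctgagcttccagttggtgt
Ifit3, chr19:34583279-34583528, plus strand: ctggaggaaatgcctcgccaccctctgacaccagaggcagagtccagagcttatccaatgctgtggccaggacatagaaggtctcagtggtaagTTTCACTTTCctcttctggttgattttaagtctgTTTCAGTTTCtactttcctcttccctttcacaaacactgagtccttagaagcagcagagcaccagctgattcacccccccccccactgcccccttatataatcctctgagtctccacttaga
Isg15, chr4:156200819-156201068, minus strand: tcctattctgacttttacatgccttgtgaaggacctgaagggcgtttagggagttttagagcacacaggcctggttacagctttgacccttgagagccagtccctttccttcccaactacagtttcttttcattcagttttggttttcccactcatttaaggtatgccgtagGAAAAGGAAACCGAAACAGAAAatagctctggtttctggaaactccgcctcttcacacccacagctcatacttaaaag
Irgm1, chr11:48871421-48871670, minus strand: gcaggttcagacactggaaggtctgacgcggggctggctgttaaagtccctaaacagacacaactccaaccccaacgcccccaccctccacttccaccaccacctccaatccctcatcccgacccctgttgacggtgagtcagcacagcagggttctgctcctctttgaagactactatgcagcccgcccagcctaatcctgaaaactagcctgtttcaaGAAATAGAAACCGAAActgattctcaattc
Gbp2, chr3:142620413-142620662, plus strand: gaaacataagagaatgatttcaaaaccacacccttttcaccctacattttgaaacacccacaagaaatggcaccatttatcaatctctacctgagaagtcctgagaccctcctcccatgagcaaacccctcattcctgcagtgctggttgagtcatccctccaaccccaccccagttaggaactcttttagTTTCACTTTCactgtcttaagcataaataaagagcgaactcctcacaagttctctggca
Socs1, chr16:10785537-10785786, minus strand: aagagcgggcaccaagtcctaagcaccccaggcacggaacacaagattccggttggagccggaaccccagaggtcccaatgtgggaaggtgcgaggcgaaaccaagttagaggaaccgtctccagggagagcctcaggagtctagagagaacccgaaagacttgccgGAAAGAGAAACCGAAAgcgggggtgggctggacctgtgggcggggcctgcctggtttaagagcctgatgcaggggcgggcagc
Both matches of Ifit1 had the same letters as those of Ifit3. In Isg15 3 matches overlapped, and in Irgm1 and Socs1 a pair did. The match nearest to a start, in Irgm1, began 24 bases before it, and the farthest, in Ifit3, 156 bases before it. The other genes that held the motif were Irgm2 and Trim30a.

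Most antiviral effectors rose. Of 23 measured members 14 rose, 1 fell and 8 were not called, with a median log2 difference of 2.16. Ifit3, which belongs to the family of proteins that recognise foreign RNA, gave 2867, 4373, 3562 and 4020 units in the Ctrl-Mhi arrays and 132.6, 33.1 and 108.6 in the GFPneg arrays. Ifit1, which binds viral RNA with unmethylated caps, gave 747.9, 1372, 699.8 and 1002 units in Ctrl-Mhi and 29.2, 9.1 and 13.6 in GFPneg. Mx1, a GTPase that traps viral nucleoproteins and whose promoter drives Cre in the Mx-Cre mice of the series, gave 3456, 5539, 5471 and 6075 units in Ctrl-Mhi and 94.6, 199.4 and 151.5 in GFPneg. In all 3 genes every Ctrl-Mhi array lay far above every GFPneg array. Groups that did not overlap, by any margin and in either direction, were found for 20.2% of all probe sets. On the log2 scale Ifit3 rose by 5.55 ± 0.48 (SE, adjusted p = 0.0024 in limma), Ifit1 by 5.34 ± 0.28 (adjusted p = 0.00026) and Mx1 by 5.15 ± 0.31 (adjusted p = 0.00049). Of the GFPneg values of Ifit1, 2 lay below the floor of 20 units, so its difference is a minimum on this scale.

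Ifit2 of the same family rose by 5.27 ± 0.79, Mx2 by 3.87 ± 0.27 and Lgals3bp, a secreted glycoprotein, by 4.69 ± 0.45. Cmpk2, a mitochondrial nucleotide kinase, rose by 3.23, the exonuclease Isg20 by 2.57 and the RNA editing enzyme Adar by 1.91. Samhd1, which degrades deoxynucleotides, rose by 1.42 and Pml, the scaffold of nuclear bodies, by 0.95. Ifi27 was the member that fell, by 1.01 ± 0.18 (adjusted p = 0.035), from 3828 ± 490 units in GFPneg to 1910 ± 276 in Ctrl-Mhi, and this call was lost in 6 of the 7 fits that left out an array. Rsad2 (viperin), which makes a chain-terminating nucleotide, gave 127.1, 1072, 239.9 and 212.3 units in Ctrl-Mhi and 47.6, 79 and 48.1 in GFPneg, and its difference of 2.35 ± 0.71 was not called (adjusted p = 0.14). Oas1g, of the oligoadenylate synthetases, lay between 48.2 and 298.2 units on the 7 arrays with overlapping groups. Ly6e was at 82442 units or more on every array and differed by 0.21.

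**Figure D1:**
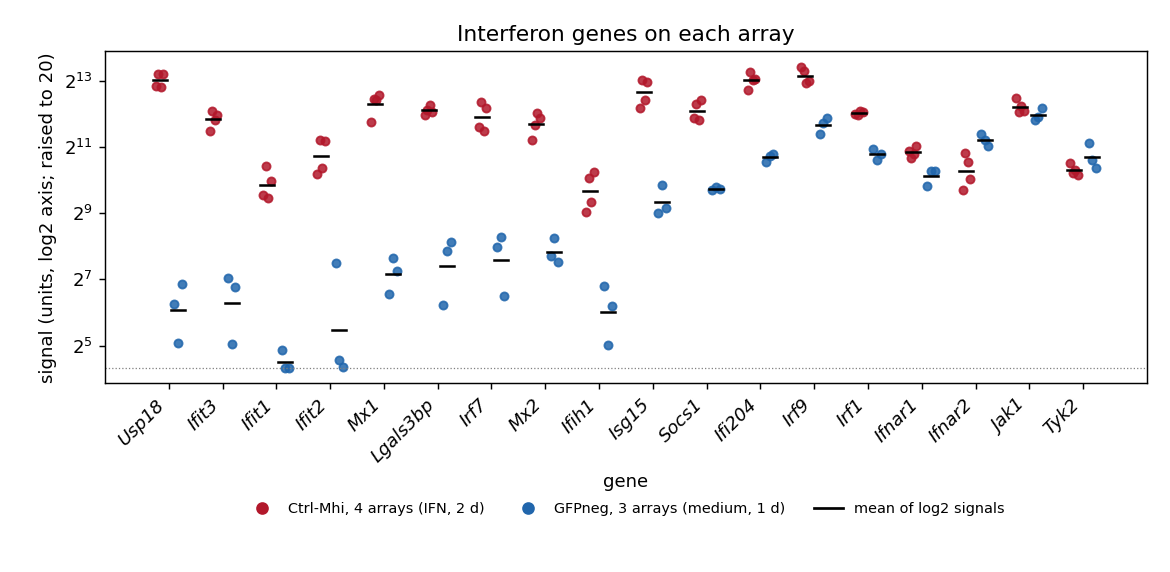
Signals of 18 interferon genes on the 7 arrays, in units on a log2 axis, with values under 20 raised to 20 (dotted line). Red points are the 4 Ctrl-Mhi arrays, blue points the 3 GFPneg arrays and black lines the means of the log2 signals. The effector and feedback genes at the left are separated by up to 6.94 in log2 (Usp18). The receptor chains and kinases at the right differ by -0.95 (Ifnar2) to 0.71 (Ifnar1), none of them called.

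Isg15 and Usp18 rose most among the measured genes of the Isg15 pathway. Isg15 itself gave 4654, 8274, 5483 and 7945 units in Ctrl-Mhi and 518.1, 925.2 and 572.6 in GFPneg. Usp18, which removes Isg15 from its targets and also blocks the receptor at Ifnar2, gave 7337, 9428, 7102 and 9314 units in Ctrl-Mhi and 75.9, 34.2 and 116.1 in GFPneg. Neither gene overlapped between the groups, and Usp18 had the largest difference of the interferon genes. It rose by 6.94 ± 0.41 in log2, or 123-fold (adjusted p = 0.00042 in limma), and Isg15 by 3.30 ± 0.30 (adjusted p = 0.0028). Uba7, the activating enzyme of the pathway, rose by 1.30 ± 0.24 (adjusted p = 0.043). Ube2l6, the conjugating enzyme, was higher by 0.94 without being called (adjusted p = 0.16). Of the 4 measured members 3 were called, and 2 were called in each fit that left out an array.

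Feedback inhibitors differed among themselves. Of 9 measured members 2 rose, 1 fell and 6 were not called, and the median difference was -0.17. Socs1, which inhibits JAK kinases, gave 3743, 5061, 3565 and 5410 units in Ctrl-Mhi and 834.3, 878 and 854.3 in GFPneg. Socs2, of the same family and best known for restraining growth hormone signals, went the other way, with 1187, 777, 1065 and 760.1 units in Ctrl-Mhi and 2051, 2219 and 2393 in GFPneg. The groups did not overlap for either gene, Socs1 rising by 2.35 ± 0.19 (adjusted p = 0.0018) and Socs2 falling by 1.25 ± 0.20 (adjusted p = 0.027, called in 2 of the 7 fits that left out an array). Socs3 differed by -1.18 (adjusted p = 0.079) at low signals of 44.2 to 185.1 units. Cish, Pias1 and the phosphatases Ptpn1, Ptpn2 and Ptpn11 were not called.

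None of the receptor chains and kinases was called. Ifnar1 gave 1888, 1608, 1775 and 2067 units in Ctrl-Mhi and 899.9, 1242 and 1247 in GFPneg. Ifnar2 gave 824.5, 1790, 1489 and 1036 units in Ctrl-Mhi and 2678, 2375 and 2106 in GFPneg. The groups did not overlap for either chain, but they lay in opposite orders, and neither difference was called (0.71 ± 0.18 with adjusted p = 0.089 for Ifnar1, -0.95 ± 0.29 with adjusted p = 0.14 for Ifnar2). A dimmer probe set of Ifnar2 differed by 0.32 in the other direction (adjusted p = 0.79). Jak1 differed by 0.24, Tyk2 by -0.40, Jak2 by -0.35, Stat3 by 0.15 and the IFN-gamma receptor chain Ifngr1 by -0.75, none of them called. Irf9, which binds the ISRE, was the member of the 8 on this list that rose, from 3282 ± 551 to 9207 ± 1511 units (1.49 ± 0.19, adjusted p = 0.012), and was not called without GFPneg replicate 2.

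Among the interferon regulatory factors 2 of 6 rose. Irf7, which amplifies the production of type I IFN, gave 3076, 5230, 2851 and 4602 units in Ctrl-Mhi and 251.6, 307.8 and 91.3 in GFPneg, and Irf1, which the IFN-gamma pathway also induces, gave 4055, 4006, 4332 and 4221 units against 1977, 1554 and 1750. Irf7 rose by 4.31 ± 0.46 and Irf1 by 1.24 ± 0.13 (adjusted p = 0.0059 for each in limma). Irf3, which is activated by phosphorylation, differed by -0.10 and stayed between 1754 and 2023 units on the 7 arrays. Irf4, Irf5 and Irf8, factors of B cell and myeloid development, differed by 0.60, 0.06 and 0.23 and were not called.

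Of 10 measured GTPases and DNA sensors of the p200 family 5 rose and 0 fell, with a median difference of 2.01. The count was 3 without Ctrl-Mhi replicate 3 or 4 or without GFPneg replicate 2. Ifi47 rose by 2.42 ± 0.20, Ifi204, a DNA sensor, by 2.33 ± 0.16, the immunity-related GTPases Irgm2 and Irgm1 by 2.15 ± 0.17 and 1.88 ± 0.31, and Gbp2 by 1.82 ± 0.30. Iigp1, which disrupts the vacuoles of intracellular parasites, gave 226.5, 1644, 1069 and 1631 units in Ctrl-Mhi and 48.5, 203.5 and 102.9 in GFPneg, and its difference of 3.16 ± 0.82 was not called (adjusted p = 0.10). The lowest Ctrl-Mhi array lay close to the highest GFPneg array. Of the 3 measured sensors Ifih1 (MDA5), which detects long double-stranded RNA, rose by 3.66 ± 0.49 (adjusted p = 0.014, not called without GFPneg replicate 3), whereas Tlr7 was higher by 2.29 without being called (adjusted p = 0.11) and Myd88 differed by -0.09.

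Of 14 measured genes of MHC class I and its peptide supply 4 rose, each by about 2-fold and from high signals in the probe set shown. H2-K1 gave 86123, 95860, 97751 and 117466 units in Ctrl-Mhi and 45574, 45783 and 46069 in GFPneg. H2-D1 gave 73065, 82643, 78616 and 95324 units in Ctrl-Mhi and 38600, 38004 and 39708 in GFPneg. Tap1, a subunit of the peptide transporter, gave 17634, 16957, 20001 and 17566 units in Ctrl-Mhi and 8596, 8232 and 9906 in GFPneg. None of these overlapped between the groups, with differences of 1.11 ± 0.14, 1.08 ± 0.14 and 1.02 ± 0.13, and Tapbp, which bridges the transporter and the class I molecule, rose by 0.97 ± 0.17. The other 10 members were not called, among them the immunoproteasome subunits Psmb8 (0.11), Psmb9 (0.49) and Psmb10 (0.22), B2m (0.27) and Tap2 (0.31). Without GFPneg replicate 1, 2 or 3, 1, 0 and 2 of the 14 were called. Class I genes are near-identical in sequence, so that a probe set can read several of them. Other probe sets of H2-D1 rose by 0.87 and by 3.04, the latter from 2350 to 20012 units. Those of H2-K1 were higher by 1.35 and, without being called, by 2.02, and that of Tapbp by 0.74, not called. Of 33 probe sets named for H2 genes outside class II 16 rose, with a median of 1.08, and the 1 that fell was H2-M1.

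Chemokines and death ligands mostly stayed low. Of 13 measured members 2 rose, the inflammatory caspase Casp4 by 2.35 ± 0.23 and Daxx, a chaperone of nuclear histones, by 1.20 ± 0.17. Daxx was not called without GFPneg replicate 1, 2 or 3. Cxcl10, a chemokine of T cells and a common reporter of IFN in myeloid cells, gave 7.8, 131.7, 25.9 and 156.4 units in Ctrl-Mhi and 20.9, 32.9 and 14.8 in GFPneg. The groups overlapped and no difference was called (adjusted p = 0.47). Cxcl9, Ccl5 and Ccl2, further chemokines, lay below 100 units on all 7 arrays.

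**Figure D2:**
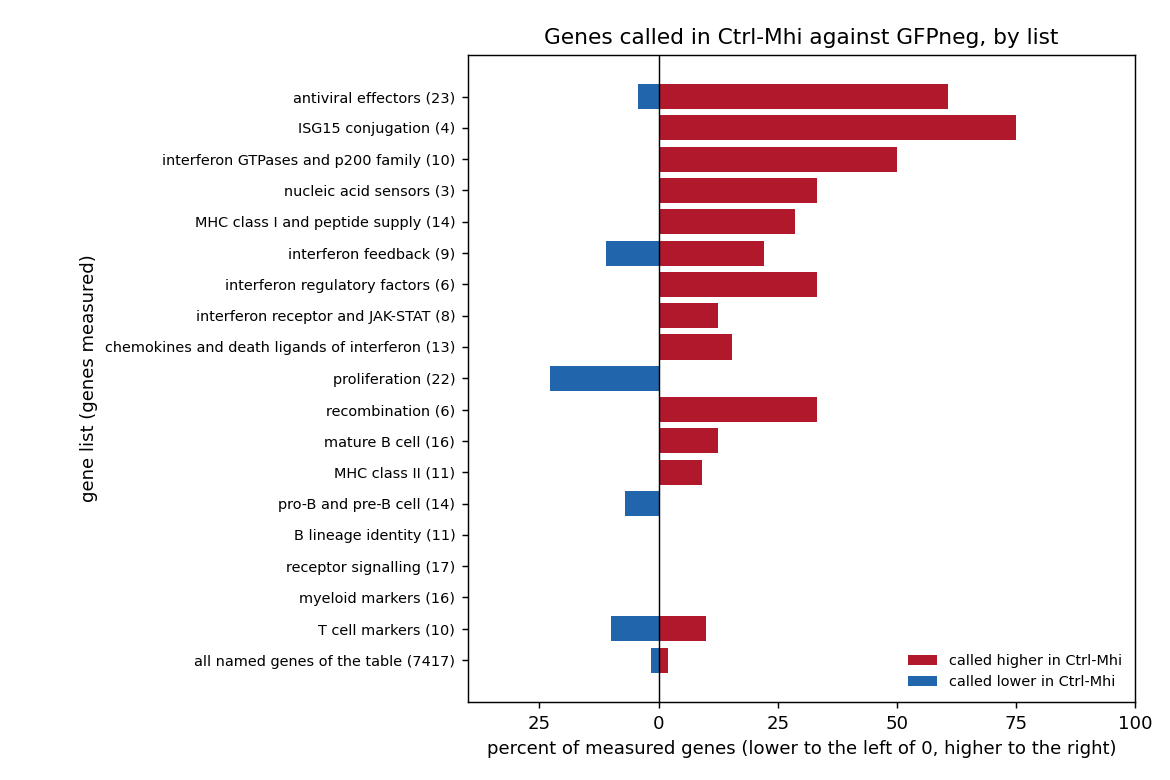
Percent of the measured genes of each list called higher (red, to the right of 0) or lower (blue, to the left of 0) in Ctrl-Mhi against GFPneg, with the number of measured genes in brackets. Antiviral effectors (14 of 23 higher) and Isg15 conjugation (3 of 4 higher) stand at the top, against 1.93% higher and 1.54% lower among all named genes.

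The same genes were then followed over all 37 arrays, of which 12 had IFN (Ctrl-Mhi and the groups Cre-Mhi and Cre-Mlo, from B1-8h/3-83(kappa) mice that also carried Mx-Cre and sorted for high or low surface IgM, 4 arrays each) and 25 had none. Every IFN array lay above every other array for 70 probe sets, or 0.702% of the table, and below every other array for 14, or 0.14%. Of the 89 interferon genes 24 were among the 70. All 12 IFN arrays came from mice with the same knock-in receptor and 8 of the 70 were immunoglobulin probe sets, so IFN and genotype cannot be told apart here either. Usp18 was at 8295 ± 1247 units in Ctrl-Mhi, 10814 ± 2319 in Cre-Mhi and 8437 ± 2106 in Cre-Mlo. Of the groups without IFN, FxE (immature B cells of BALB/c bone marrow taken without culture) was highest, at 725.1 ± 31.3 units (n = 3), and FxE HA (such cells of Bcl-2 transgenic mice, cultured with the kinase inhibitor herbimycin A) lowest, at 27.4 ± 8.53 (n = 6). FxE also ranked first among the groups without IFN for Ifit1, Ifit3 and Mx1, with 141.1, 357.4 and 360.2 units. It did not for Isg15, Irf7 and Ifit2, at 678.1, 386.6 and 85.9 units. There B6-M- (IgM-negative cells of IL-7 cultures) was highest for Isg15 at 1147 units. FxE Ctrl (Bcl-2 transgenic cells in medium without the inhibitor) was highest for Irf7 at 392.0, and FxE HA for Ifit2 at 290.3. Per the study's methods, RNA of FxE and FxD samples (FxD, pre-B cells of BALB/c marrow) was amplified in repeated rounds. That step is not described there for cells treated with IFN, so preparation differed between groups too.

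Socs1 did not follow this pattern. It was higher without IFN in GFPpos cells (GFPneg mice, 1 d with herbimycin A, sorted as GFP+) at 7583 ± 490 units, and in B6-M- cells (IgM-negative cells of IL-7 cultures) at 6190 ± 1340, than in Ctrl-Mhi at 4445 ± 927. Cre-Mlo was highest at 14071 ± 3278 units, and GFPneg (856 ± 21.9), FxE Ctrl (630.2 ± 218.9; fraction E cells of Bcl-2 transgenic mice in medium) and FxE (427.1 ± 98.7) were lowest. These levels are given without a test. Irf1, Irf9, Casp4, Gbp2, Irgm2, Isg20, Pml, Samhd1 and the probe set shown for H2-D1 rose in Ctrl-Mhi against GFPneg but were likewise not among the 70.

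**Figure D3:**
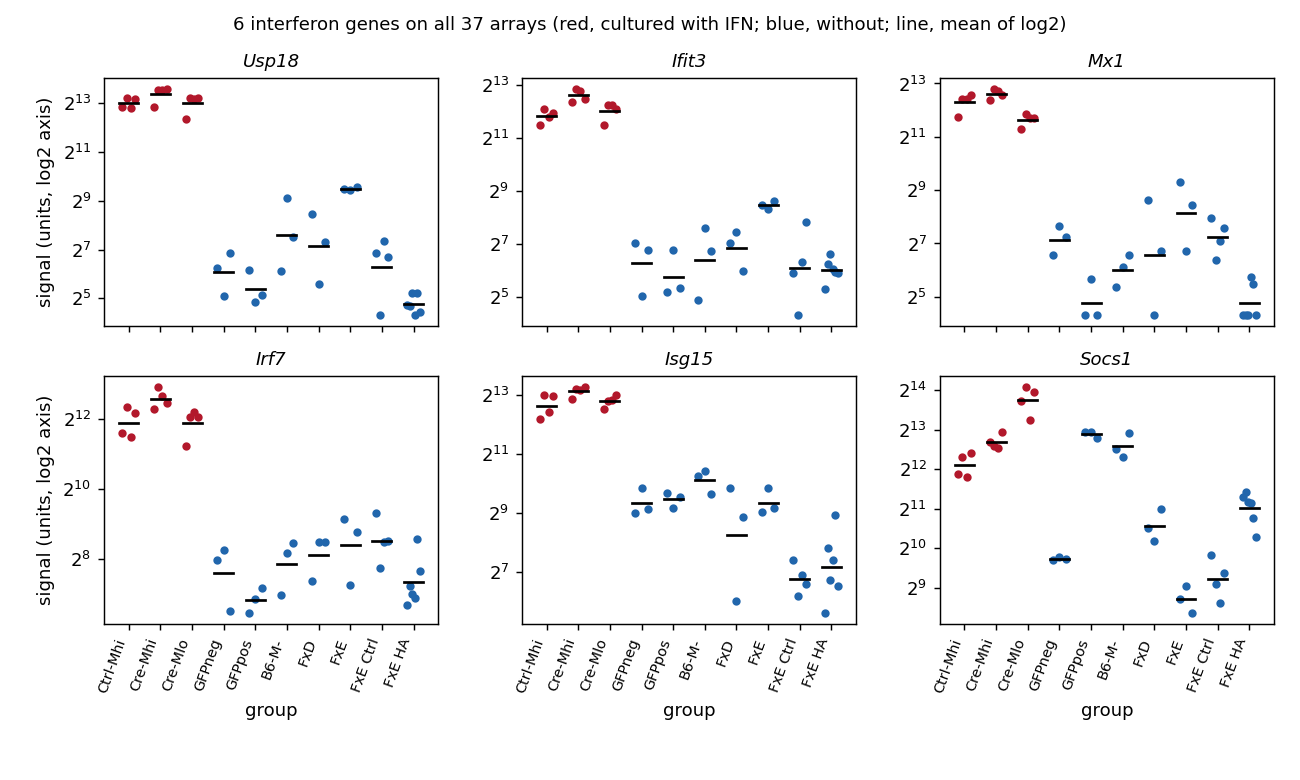
Signals of Usp18, Ifit3, Mx1, Irf7, Isg15 and Socs1 on all 37 arrays by group, in units on a log2 axis, with values under 20 raised to 20. Red points are arrays with IFN, blue points arrays without and black lines the means of the log2 signals. The 12 IFN arrays lie above all others for the first 5 genes, whereas for Socs1 the GFPpos and B6-M- arrays lie as high as Ctrl-Mhi or higher.

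Genes outside the lists also stood in the set of 70. Cybb, the membrane subunit of the phagocyte oxidase, rose from 2395 ± 197 to 6963 ± 1233 units in Ctrl-Mhi against GFPneg (1.52 ± 0.19, adjusted p = 0.010). Ifi27l2a rose by 3.08 ± 0.18, from 2935 ± 590 to 24622 ± 2807 units, Mov10, an RNA helicase, by 2.57 ± 0.39, Trim11 by 1.51 ± 0.15, Cmtr1, a cap methyltransferase, by 1.21 ± 0.12 and Nampt, an enzyme of NAD synthesis, by 1.15 ± 0.19. Swap70, Rab33b, Adam19 and Sdhaf2 were among the 70 too, but were not called in Ctrl-Mhi against GFPneg (0.48, 0.53, 0.81 and 0.59). The 14 probe sets that were lower with IFN included Atp5a1, Atp5o, Mdh2, Ndufb2, Stoml2 and Mrps7. Their differences in Ctrl-Mhi against GFPneg lay between -0.71 (Atp5o) and -0.29 (Ndufb2), and 0 of these 6 were called, while Nme2 (-0.93), Pcbd2 (-1.20) and Plxnd1 (-2.73) were.

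A further comparison of cells with and without IFN shared no array with the first, Cre-Mhi against FxE Ctrl with 4 arrays each. The FxE Ctrl cells were sorted from bone marrow without IL-7 culture, so this comparison differs from the first in more than genotype. Per the study's legends, FxE Ctrl replicates 1 and 2 had 24 h in medium and replicates 3 and 4 had 48 h, so that their spread includes time. The comparison called 1292 probe sets higher and 1060 lower, or 23.6% of the table, and centring each array on its median turned that split into 883 higher and 1641 lower. Of the 33 interferon genes that rose in Ctrl-Mhi, 29 were called higher in Cre-Mhi too and 0 were called lower, against 12.9% of all probe sets called higher. Against the FxE Ctrl arrays of 24 h alone, or those of 48 h alone, 29 of the 33 were called higher each time. Over all probe sets, 123 were called higher in both comparisons, or 56.2% of the first list and 9.52% of the second. In Cre-Mhi, Usp18 differed by 7.07 ± 0.61, Ifit1 by 5.26 ± 0.25 and Mx1 by 5.36 ± 0.34, beside 6.94, 5.34 and 5.15 in Ctrl-Mhi. Isg15 was higher by 6.35 ± 0.27 there, beside 3.30 ± 0.30. The 4 genes not called in Cre-Mhi were Irf1 (0.43), Irf9 (0.05), Casp4 (0.55) and Samhd1 (0.21). FxE Ctrl carried myeloid transcripts, with 6 of 16 myeloid genes called lower in Cre-Mhi, against 11.7% of all named genes. Lyz2 (lysozyme) was at 4988 ± 2647 units in FxE Ctrl and at 150.4 ± 259.5 in Cre-Mhi. The part of myeloid transcripts in the differences of this comparison was not tested.

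Of 22 measured proliferation genes 21 had a negative difference, 5 were called lower and 0 higher, with a median of -1.28. Of all 7417 named genes 3509 had a negative difference and 1.54% were called lower. Pcna, the sliding clamp of DNA polymerase, gave 4980, 6613, 4461 and 3255 units in Ctrl-Mhi and 18092, 15303 and 15579 in GFPneg. Mcm2, a subunit of the replicative helicase, gave 1255, 1356, 1159 and 1041 units in Ctrl-Mhi and 5031, 2918 and 3269 in GFPneg. The groups did not overlap for either gene, which fell by 1.80 ± 0.25 (adjusted p = 0.015) and by 1.60 ± 0.22 (adjusted p = 0.015). Mcm4, Mcm3 and Rrm1, a subunit of ribonucleotide reductase, fell by 1.61, 1.19 and 1.79. Prim1, the catalytic subunit of the primase, was not on the list and fell by 2.32 ± 0.33.

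Genes of mitosis pointed the same way without being called. Mki67, which coats mitotic chromosomes, gave 3389, 10038, 3298 and 2709 units in Ctrl-Mhi and 14574, 11932 and 10885 in GFPneg (-1.57 ± 0.46, adjusted p = 0.13). Ctrl-Mhi replicate 2 stood close to the GFPneg arrays for this gene, and was also the highest of its group for Top2a, Cdk1, Ccnb2 and Cdc20. Without that array 13 of the 22 proliferation genes were called lower. Without Ctrl-Mhi replicate 3 it was 0, and without any other single array 1 or 2. Cre-Mhi against FxE Ctrl went the other way for this list, with 14 of the 22 called higher and 0 lower (11 higher against the FxE Ctrl arrays of either time alone). Of all named genes 11.9% were called higher in that comparison. Mki67 was at 141.9 ± 138.0 units in FxE Ctrl and at 5133 ± 2639 in Cre-Mhi.

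**Figure D4:**
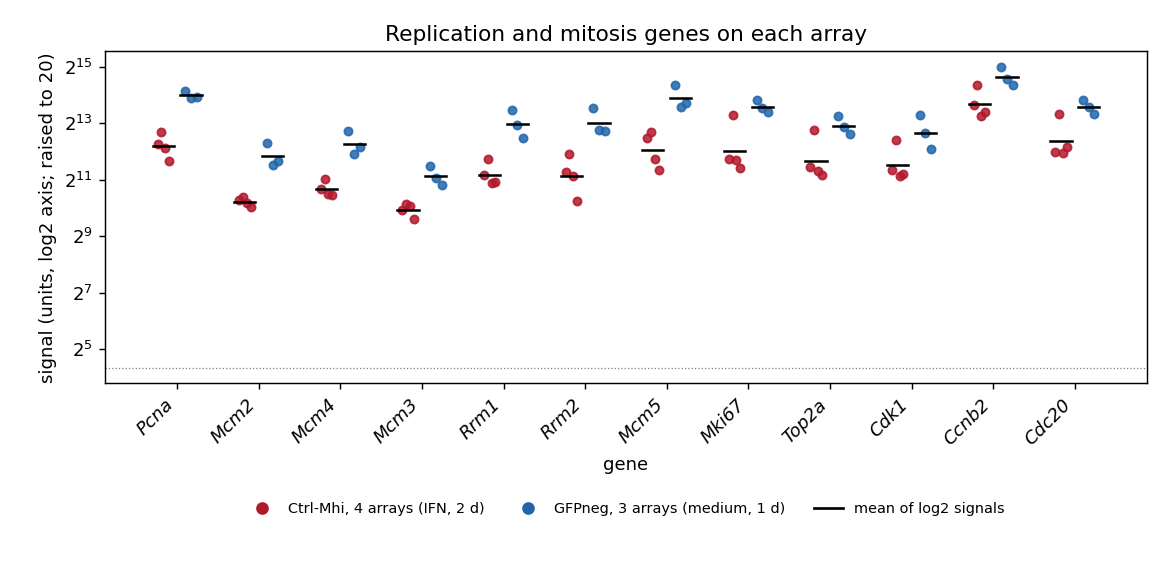
Signals of 12 replication and mitosis genes on the 7 arrays, in units on a log2 axis. Red points are the 4 Ctrl-Mhi arrays, blue points the 3 GFPneg arrays and black lines the means of the log2 signals. Pcna, Mcm2 and the other replication genes at the left do not overlap, whereas for Top2a, Cdk1, Ccnb2 and Cdc20 the highest red point, replicate 2, lies within or next to the blue points.

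Among called probe sets that match 1 gene, immunoglobulin variable segments had the largest differences of the comparison, and the mice of the groups carried different rearranged receptors. Of 76 immunoglobulin probe sets 29 were called higher and 2 lower, and without them 190 and 131 calls were left. Ighv1-54 gave 43918, 59226, 43672 and 59359 units in Ctrl-Mhi and 349.6, 372.1 and 191.8 in GFPneg, a difference of 7.45 ± 0.28. A probe set that matches Ighv1-53, Ighv1-72 and Ighm differed by 8.66 ± 0.44. Igkv9-120 differed by 7.33 ± 0.48 and Igkv4-91 by 5.44 ± 0.12, and the probe sets of Igkv4-59, Igkv4-68 and Igkv4-70 by 5.11 to 5.27. Variable segments are similar in sequence, so these probe sets read a family and not 1 segment. Other probe sets of Igkv9-120, with lower signals in Ctrl-Mhi, differed by -0.10 and 1.25, neither called. Ighv3-6 was lower in Ctrl-Mhi, with 86.9, 383.7, 393.9 and 159.6 units there and 3392, 3688 and 3473 in GFPneg (-4.04 ± 0.55). It was at 3149 units in GFPpos, from the same mice as GFPneg, and at 2305 ± 1566 in B6-M-, from C57BL/6 mice without a transgene.

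H2-Ea, the alpha chain of the class II molecule I-E, whose promoter is deleted in the b haplotype of C57BL/6 mice, gave 12253, 21819, 8222 and 26855 units in Ctrl-Mhi and 717.8, 398.7 and 15.9 in GFPneg. The groups did not overlap, and the difference of 6.45 ± 1.23 was just called (adjusted p = 0.045) and was called in 1 of the 7 fits that left out an array. Within one genotype H2-Ea varied too, from 20473 units in Cre-Mhi to 4342 in Cre-Mlo and from 63232 in FxE Ctrl to 861.4 in FxE HA. It was at 49.4 units in B6-M- and 57.4 in GFPpos, and at 43261 in FxE and 18480 in FxD, the pre-B cells of BALB/c marrow. The other 10 measured class II genes were not called, with 8 of the 11 below 0. The part of the H2 haplotype in the class I differences was not tested.

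Among called probe sets that match 1 gene, the largest falls were of Tulp1, H2-M1 and Gfra2. Tulp1, a gene of photoreceptors, gave 65.8, 185.4, 138.9 and 132.9 units in Ctrl-Mhi and 2355, 2474 and 3453 in GFPneg, and fell by 4.47 ± 0.36 (adjusted p = 0.0018). H2-M1 fell by 4.47 ± 0.27 and Gfra2, a receptor of neurturin, by 4.20 ± 0.67. A brighter probe set of Gfra2 was lower by 1.61 without being called (adjusted p = 0.12 in limma). Tulp1, H2-M1 and Gfra2 were also higher in GFPpos (1520, 455 and 1049 units) than in Ctrl-Mhi. In B6-M- they were at 91.9, 188.7 and 565.6 units. The nucleoside transporter Slc29a1 (-2.33), Rcan3 (-2.32), Cln6 (-2.31) and Plxnd1 completed the 10 largest falls with Ighv3-6, Thy1 and Prim1. Gfra2, Thy1 and Cln6 were each called in 1 of the 7 fits that left out an array.

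Rag1 and Rag2, which cut the receptor loci during V(D)J recombination, were higher in Ctrl-Mhi. Rag1 gave 2092, 1648, 3174 and 2404 units in Ctrl-Mhi and 245.1, 253.3 and 211.5 in GFPneg. Rag2 gave 511.6, 409, 523.3 and 406.7 units in Ctrl-Mhi and 83.6, 40.6 and 143.2 in GFPneg. The groups did not overlap, with differences of 3.26 ± 0.24 (adjusted p = 0.0010) and 2.55 ± 0.41 (adjusted p = 0.026). GFPneg cells had been gated against a Rag-2 reporter and Ctrl-Mhi cells had not, so the gate, the genotype, the hours of reculture and IFN cannot be told apart. The other 4 measured recombination genes were not called. Of 14 genes of B cell progenitors Igll1, a part of the surrogate light chain, fell from 4617 ± 489 to 2110 ± 441 units (-1.15 ± 0.20) and 13 were not called. Rag2 was called in 3 of the 7 fits that left out an array, and Igll1 in 1.

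Among 16 mature B cell genes Cd40 and Fcer2a rose. Cd40, the receptor for T cell help, rose from 1336 ± 174 to 3240 ± 324 units (1.28 ± 0.16, adjusted p = 0.010) and Fcer2a, which encodes CD23, from 141 ± 78.6 to 1045 ± 90 (3.06 ± 0.39, adjusted p = 0.011). Cd83 was higher by 1.13 and Itgb7 lower by 1.02 without being called. Among 17 genes of receptor signalling 0 were called. Myc (2.08, at 25.8 to 269.8 units) and Btg2, which restrains growth (0.78), rose among 16 immediate early genes, Klf2, which keeps lymphocytes quiescent and guides their traffic, fell by 1.17 ± 0.18 among 12 FoxO targets, and Sqle, an enzyme of sterol synthesis, fell by 1.13 ± 0.22 among 8 cholesterol genes. Klf2 was called in 2 of the 7 fits that left out an array, and Myc, Btg2 and Sqle in at most 2.

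**Figure D5:**
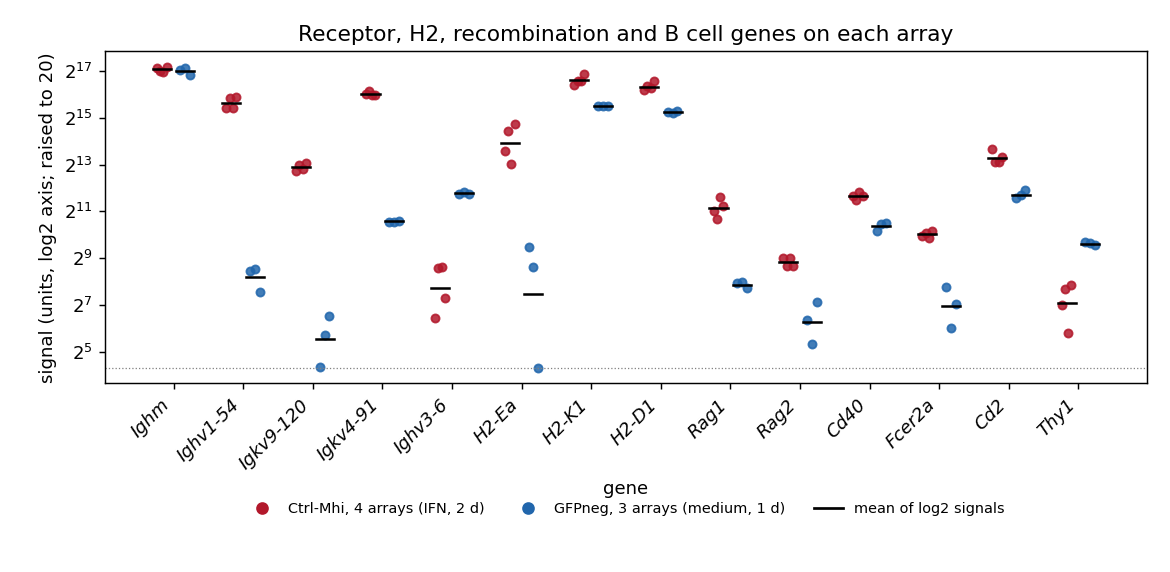
Signals of receptor, H2, recombination and B cell genes on the 7 arrays, in units on a log2 axis, with values under 20 raised to 20 (dotted line). Red points are the 4 Ctrl-Mhi arrays, blue points the 3 GFPneg arrays and black lines the means of the log2 signals. Ighm lies at the same level in both groups, the variable segment Ighv1-54 differs by 7.45 in log2, and H2-Ea varies more than 3-fold within Ctrl-Mhi.

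Markers of other cells gave few differences. Of 10 T cell markers Cd2 rose by 1.58 ± 0.18 and Thy1 fell by 2.53 ± 0.49, and 8 were not called. The summed signal of the 10 markers was 11366 to 15639 units in Ctrl-Mhi and 6752 to 7184 in GFPneg, and Cd2 alone made 8836 to 12790 of the former. Of 16 myeloid markers 0 were called, with summed signals of 5521 to 8892 units in Ctrl-Mhi and 5225 to 6618 in GFPneg. Lyz2 gave 28.6, 180.9, 139.7 and 277.1 units in Ctrl-Mhi and 16.7, 21.2 and 38 in GFPneg, and its difference of 2.24 was not called (adjusted p = 0.19). None of the NK, erythroid, mast cell, stromal or dendritic markers was called, and the highest mean among the 7 NK markers was 185.4 units.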

How the data were processed

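RNA of sorted B lineage cells had been hybridized to Affymetrix U74Av2 arrays, and the deposited intensity values are MAS 5.0 signals that the authors scaled to a target of 1500 units after mask corrections, per the labels (Microarray Suite 5.0). From these, signals of 20 or less were raised to 20 and a linear model was run on the log2 scale (limma 3.58.1 under R 4.3.3, moderated and two-sided, Benjamini-Hochberg over 9977 probe sets, called at an adjusted p under 0.05), each comparison on its own arrays. ± is an SD beside a mean and an SE beside a log2 difference, as limma gives it. Platform annotation gave 8724 probe sets 1 gene, 346 several and 907 none. A gene with several probe sets was shown by the brightest over the 7 arrays. The largest rises and falls were instead picked by size among called probe sets, and the probe sets that separated all IFN arrays were taken as they were. Named genes were all measured members of the receptor, feedback and regulatory factor lists, the 10 largest rises and falls, up to 4 members of every other list by adjusted p, Rag1, Rag2, Ighm and Mx1, and probe sets that separated all IFN arrays from all others. B2m, Ccl2, Ccl5, Cxcl9, Cxcl10, Ccnb2, Cdc20, Cdk1, Ifi27, Iigp1, Isg20, Ly6e, Mcm3, Mki67, Oas1g, Pml, the Psmb genes, Rsad2, Samhd1, Tap2 and Top2a were named in addition after their values had been seen. Members and lists were chosen with earlier results of these data known. The fit was tested on simulated data. The number of arrays limits the precision. Alternatives were floors, offsets, scalings, a filter, a fit of all 37 arrays, a replicate block, the t-test of the study's methods, fits without each array and, added later, FxE Ctrl split by hours in medium. Python 3.11.15 with pandas 2.3.3 and numpy 2.4.6 made the tables, and matplotlib 3.10.9 the figures.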

Additional observations from a re-analysis of the deposited data

Results flagged for a closer look

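In 10 of 201 probe sets examined, or 4.98%, 1 Ctrl-Mhi array lay so far from the other 3 that the gap exceeded Dixon's 95% critical value for 4 samples. Chance alone flags about 5% of such groups, and no explanation was weighed. Ctrl-Mhi replicate 1 was highest for Spib at 76783 units (68857 to 70131 in the others) and for Vav2 at 1891 units (1525 to 1571), and lowest for Ifi27l2a at 20426 units (25724 to 26283). Ctrl-Mhi replicate 2 was lowest for Pgk1, an enzyme of glycolysis, at 4846 units (11412 to 12498), for Ms4a2 at 143.1 units (187.2 to 196.3), for Atp5a1 at 13932 units (14658 to 14745) and for Adam19 at 9543 units (12082 to 12495). It was highest for Idi1, an enzyme of sterol synthesis, at 3002 units (1735 to 1902), for Psat1, an enzyme of serine synthesis, at 2995 units (1690 to 1741), and for Igkv4-70 at 44894 units (35264 to 35746).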

How the results depend on the processing

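No named gene that was called in Ctrl-Mhi against GFPneg changed sign under any alternative listed here. The 352 probe sets called became 587 (279 higher, 308 lower) where only those with a mean signal of at least 200 were tested, 199 by the methods' t-test with its 3 criteria and 53 by that test after Benjamini-Hochberg, and 148 to 371 without 1 array. Another floor, offset or scaling and the fit of all 37 arrays gave 313 to 520, with 261 higher and 259 lower at a floor of 100, and without immunoglobulin probe sets, a choice made after seeing the data, 321 were called. The 2352 calls of Cre-Mhi against FxE Ctrl became 1153 and 1485 by the t-test with and without those criteria, the latter after Benjamini-Hochberg, and 1785 to 2454 without 1 array. Against FxE Ctrl arrays of 24 h alone 2428 were called and against those of 48 h alone 1899, a split made after seeing the data. The 33 interferon genes became 6 by the t-test after Benjamini-Hochberg and 21 to 31 without 1 array, and were 32 to 38 under the other alternatives without a block. Replicate numbers did not pair the arrays, since same-numbered arrays correlated at -0.0235 to -9.89e-05 over 3 pairs and 0 of 3 correlated best with their own number. In Cre-Mhi and FxE Ctrl these values were 0.00884 to 0.0936, with 2 of 4. With the replicate number as a block, 19 probe sets and 2 interferon genes were called in Ctrl-Mhi against GFPneg, a fit that leaves out Ctrl-Mhi replicate 4, and Myd88 was at 0.083. The 70 probe sets that set all IFN arrays apart were 53 after median centring and 70 to 75 otherwise. Uncalled genes that changed sign were Ptpn11 (-0.14 at a floor of 100, -0.0091 after quantile normalization, -0.38 to 0.97 without 1 array), Ighm (-0.022 after quantile normalization, -0.026 to 0.14 without 1 array), Cish (-0.42 to 0.034), Irf5 (-0.13 to 0.26) and Myd88 (-0.28 to 0.083), the last 3 without 1 array. The share of promoters with the ISRE was not computed over all genes called higher, because only 109 of 152 had a listed promoter.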

Other observations

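Of the lists not yet described, most gave no call in Ctrl-Mhi against GFPneg. None of 11 G1 regulators, 11 heat shock genes, 9 glycolysis genes, 8 genes of amino acid synthesis and stress, 8 members of the Bcl2 family, 13 targets of NF-kB, 6 plasma cell genes and 4 sex chromosome genes was called by limma. Among 8 p53 targets Btg2 was the call. The medians of the log2 differences were -0.52 for G1 regulators, -0.60 for glycolysis, -0.79 for the 8 genes of cholesterol synthesis and -0.18 for the amino acid genes, and lay between 0.00 and 0.24 for heat shock, the Bcl2 family, NF-kB targets and plasma cell genes, beside 0.03 for all named genes. Of the 9 glycolysis genes 7 had a negative difference. The 4 sex chromosome genes had a median of -0.45 and a lowest difference of -2.92, with a smallest adjusted p of 0.22 in limma.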
